A study of Mus musculus with 11 samples.

Results

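The genes described here are 35 that set up ribosome production and growth: the transcription factor genes Myc, Mycn and Max, genes of RNA polymerase I, and genes of the nucleolar machinery that processes ribosomal RNA and assembles both ribosomal subunits. They were chosen by name, with earlier results of these data known. Their gene names in the deposited table equal the entries of a given list, and they make up 35 of the 43346 genes in that table. Their RNA was measured by sequencing in liver cells of wild-type male C57BL/6 mice aged 14 to 16 weeks. The cells were caught with magnetic beads against EpCAM, an epithelial surface protein, passed over the column step again, and are labelled cholangiocytes, which form the lining of bile ducts. R15 is 3 mice that had the DDC diet for 10 days and then chow for 15 days. DDC is 4 mice fed the DDC diet for 10 days, a diet that injures the liver and ducts and causes cholestasis in mice. Control is 4 mice on chow. Each library came from its own mouse, and the libraries are stranded and made from polyadenylated RNA, so ribosomal RNA itself was not measured.

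As background, Myc and its relative Mycn pair with Max and bind DNA at the E-box CACGTG, and many genes of ribosome production are among their known targets. RNA polymerase I transcribes the long ribosomal RNA precursor in the nucleolus. Small nucleolar ribonucleoproteins (snoRNPs) then guide its chemical modification: those of the box C/D class methylate riboses and those of the box H/ACA class make pseudouridine. Many assembly factors cut and fold the precursor into the small (40S) and the large (60S) subunit. Cholangiocytes are mostly quiescent in a healthy liver and can divide during cholestatic injury.

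Promoter windows bear on these genes because Myc binds the E-box and because the series title names NF-Y, a factor that binds CCAAT. RefSeq windows on build GRCm38.p6 (the assembly of mm10), each of 300 bases with 250 before the annotated start and 50 after it, were at hand for 29 of the 35 genes. The 4 genes with an E-box in the window and the largest fold change between DDC and Control are shown first, 5′ to 3′ on the gene's own strand, with CACGTG in capitals. They are Ltv1 (chr10:13193088-13193387, minus strand), Pes1 (chr11:3963725-3964024, plus strand), Tsr1 (chr11:74897830-74898129, plus strand) and Utp20 (chr10:88826765-88827064, minus strand).
Ltv1: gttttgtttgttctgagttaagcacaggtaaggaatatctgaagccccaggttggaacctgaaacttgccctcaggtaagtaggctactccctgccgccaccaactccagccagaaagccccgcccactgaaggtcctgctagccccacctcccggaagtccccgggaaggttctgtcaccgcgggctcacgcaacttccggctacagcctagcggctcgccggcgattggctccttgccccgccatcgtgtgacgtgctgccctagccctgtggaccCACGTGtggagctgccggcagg
Pes1: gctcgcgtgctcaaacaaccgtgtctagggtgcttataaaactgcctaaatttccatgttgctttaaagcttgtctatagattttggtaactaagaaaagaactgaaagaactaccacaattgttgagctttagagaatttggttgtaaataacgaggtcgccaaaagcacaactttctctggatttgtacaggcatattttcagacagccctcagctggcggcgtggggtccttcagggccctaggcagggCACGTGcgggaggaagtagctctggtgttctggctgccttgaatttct
Tsr1: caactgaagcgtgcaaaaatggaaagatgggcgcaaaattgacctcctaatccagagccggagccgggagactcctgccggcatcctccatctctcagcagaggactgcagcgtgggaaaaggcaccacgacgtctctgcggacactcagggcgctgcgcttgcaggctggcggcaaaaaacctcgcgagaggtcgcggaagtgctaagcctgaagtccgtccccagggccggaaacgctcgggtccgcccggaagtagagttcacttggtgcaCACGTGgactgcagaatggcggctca
Utp20: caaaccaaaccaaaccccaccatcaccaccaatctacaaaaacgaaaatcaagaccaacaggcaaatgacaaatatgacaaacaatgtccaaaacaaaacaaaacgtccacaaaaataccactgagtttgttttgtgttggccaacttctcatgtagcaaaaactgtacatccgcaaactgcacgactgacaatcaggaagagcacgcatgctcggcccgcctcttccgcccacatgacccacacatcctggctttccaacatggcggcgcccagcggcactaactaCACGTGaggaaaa
In all of them the E-box lies after the annotated start, beginning 28 bases downstream in Ltv1, 2 in Pes1, 24 in Tsr1 and 37 in Utp20. Nhp2, which had the largest rise of the 35 genes on the scale of log2(FPKM + 1) and was picked for printing after its values were seen, has no E-box in its window (chr11:51619523-51619822, plus strand) but 3 matches to CCAAT on either strand, printed in capitals.
Nhp2: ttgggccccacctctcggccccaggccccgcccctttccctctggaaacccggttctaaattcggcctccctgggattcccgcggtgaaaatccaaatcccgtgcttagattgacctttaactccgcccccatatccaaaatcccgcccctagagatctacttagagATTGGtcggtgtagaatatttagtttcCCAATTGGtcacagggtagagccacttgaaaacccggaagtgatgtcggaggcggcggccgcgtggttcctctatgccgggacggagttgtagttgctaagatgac
Counted from the start base, the matches in Nhp2 begin at -83, -56 and -53, and the last 2 overlap each other in the run CCAATTGG. CACGTG, which reads the same on both strands, was present in 8 of the 29 genes with a window (27.6%), namely Ltv1, Pes1, Tsr1, Utp20, Wdr43, Mybbp1a, Nop2 and Max, against 11.6% of the 10440 tested genes with a window and 8.09% of all genes with one. CCAAT or its reverse complement ATTGG was present in 9 of the 29 (31.0%), against 42.4% of the tested genes and 41.1% of all genes. The 8 genes with an E-box had a median log2 fold change of 0.42 between DDC and Control, with 7 of them higher in DDC, and the 21 genes without one had a median of 0.30, with 16 higher, where 33.5% of all tested genes were higher. For CCAAT there was a median of 0.43 and 7 of 9 higher among genes with it, and a median of 0.34 and 16 of 20 higher among genes without it. These matches are letters in a window, and binding was not measured.

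The deposited values are FPKM, fragments per kilobase of gene scaled to library size. A comparison of FPKM between genes depends on the gene length listed for each. Libraries held from 49339240 to 72929107 whole reads each, and Mycn, the scarcest of the 35 genes, still had at least 38 reads in each. The summed FPKM of 10 cholangiocyte markers was 9387 to 10502 in R15, 10811 to 11959 in DDC and 8974 to 11692 in Control. Some libraries stood apart: 13 pancreatic acinar genes summed to 895 to 7667 FPKM in Control 1, Control 2, Control 3, DDC 1 and R15 3 and to at most 11.5 FPKM in the other 6, and 7 gastric mucous genes reached 11252 FPKM in Control 3. Results are therefore also given without these 5 libraries. Markers of other cells moved with the diet: 15 macrophage and dendritic cell genes summed to 216 to 832 FPKM in R15, 1638 to 2707 in DDC and 218 to 249 in Control, with no gene of that list at 0 in all libraries of a group. In DDC against Control 11 of these 15 (73.3%) were higher and 1 lower, where 33.5% of all tested genes were higher and 31.9% lower. Their log2 fold changes ran from -1.42 to 4.59 (Lyz2). The 8 neutrophil genes summed to 2.66 to 9.98 FPKM in R15, 41.7 to 70.2 in DDC and 1.36 to 3.95 in Control. Only 3 of them, S100a8, S100a9 and Csf3r, reached 1 FPKM in 3 libraries or more. The defining genes Ly6g, Mpo and Elane did not. They were at 0 in every R15 and Control library, and none was at 0 in all DDC libraries. Hepatocyte markers (14 found of 15) summed to 1943 to 2681 FPKM in R15, 1193 to 1764 in DDC and 3026 to 3775 in Control, a sum carried by Alb and Ttr. Single hepatocyte genes went both ways, 5 higher and 3 lower in DDC against Control and 5 higher and 2 lower in R15 against Control, with Fgb at log2 fold changes of 2.18 and 2.52. The 12 endothelial markers summed to 74.6 to 259 in R15, 32.5 to 72.5 in DDC and 114 to 503 in Control. The part of these other cells in the results below was not tested. In bulk samples a change in the number of cells of a type and a change of RNA per cell cannot be told apart.

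The first question is what the DDC diet did to these genes, in DDC against Control. Most genes of the snoRNPs and of subunit assembly were higher in DDC, together with Myc and Mycn. The RNA polymerase I subunit gene Polr1a was lower. The subunit gene Polr1b and Ubtf, which encodes a transcription factor of this polymerase, did not pass. Of the 35 genes, all of which passed the filter on low values, 29 (82.9%) rose and 1 fell, where 33.5% of all 15264 tested genes rose and 31.9% fell (65.4% in either direction; limma, Benjamini-Hochberg adjusted p under 0.05). The median log2 fold change was 0.43, against 0.00 for all genes tested. For 30 of the 35 genes every DDC library lay above every Control library, as for 31.5% of all genes, and for Polr1a every one lay below, as for 29.8%. The 35 genes together held 0.214% to 0.224% of the summed FPKM in DDC against 0.162% to 0.172% in Control, so the ranges did not overlap. Without the 5 libraries with pancreatic or gastric transcripts the median was 0.46, against 0.01 for all genes tested. This leaves 1 Control library, which is assumed to vary like the other groups. With each library rescaled to a common FPKM total the counts were 26 higher and 2 lower. The median was then 0.36, against -0.07 for all genes tested. The share of all genes called under that setting is not given here.

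**Figure D1:**
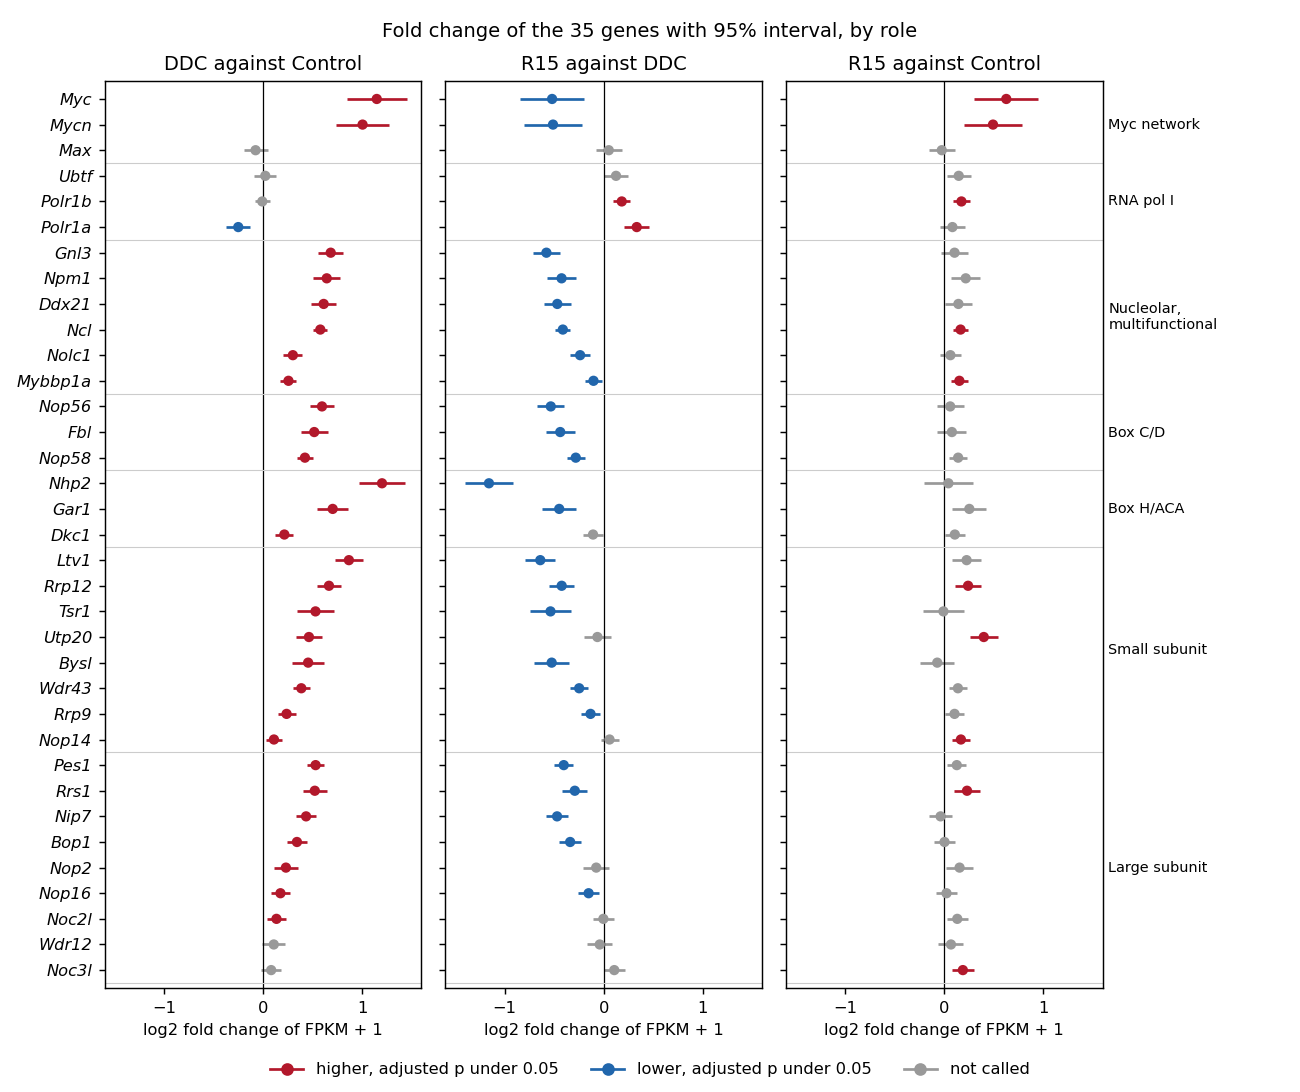
Log2 fold change of FPKM + 1 for each of the 35 genes (rows, grouped by role) in DDC against Control, R15 against DDC and R15 against Control (panels), with 95% intervals from limma; red is higher, blue lower and grey not called at an adjusted p under 0.05. In DDC against Control 29 genes are red and Polr1a is blue. In R15 against DDC 24 genes are blue and 2 red.

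Myc, the factor that drives growth programmes in many cell types, is encoded on mm10 chromosome 15 (61985341 to 61990374, ENSMUSG00000022346). It stood at 17.3, 22.9, 21.96 and 21.3 FPKM in DDC 1 to 4, against 7.37, 8.79, 9.11 and 10.2 FPKM in Control 1 to 4. Every DDC library was above every Control library, and DDC 1 was the lowest of its group. The rise was 1.15 ± 0.14 on the log2 scale of FPKM + 1 (SE; limma adjusted p = 4.1e-05). Mycn, its relative best known from developing tissue and neuroblastoma (chromosome 12, 12936096 to 12941914, ENSMUSG00000037169), was far scarcer, at 1.47, 1.49, 2.07 and 1.31 FPKM in DDC and 0.194, 0.342, 0.43 and 0.172 FPKM in Control, again without overlap. Its rise was 1.00 ± 0.12 (limma adjusted p = 4.6e-05), a value that the added 1 FPKM holds down, since the DDC mean was 5.57 times the Control mean. Mycn reached 1 FPKM in only 5 libraries, the 4 of DDC and 1 of R15, so it entered the test through the group where it is high. Max, the partner both need to bind DNA, stood at 28.2, 29.1, 26.99 and 30.9 FPKM in DDC and 28.97, 31.2, 32.3 and 29.2 FPKM in Control. These ranges overlapped, and the log2 difference was -0.08 ± 0.05 with a 95% interval from -0.20 to 0.04, which passed as lower with each library rescaled to a common total (-0.16).

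The RNA polymerase I genes did not follow the rest. Polr1a, which encodes the largest subunit of the enzyme (chromosome 6, 71909053 to 71979356, ENSMUSG00000049553), stood at 16.01, 16.4, 16.2 and 16.9 FPKM in DDC and 21.3, 20.1, 17.5 and 20.003 FPKM in Control. Every DDC library was below every Control library, a fall of 0.25 on the log2 scale (SE 0.05; limma adjusted p = 0.0020). Polr1b, which encodes the second largest subunit, stood at 6.33, 6.27, 6.42 and 6.29 FPKM in DDC and 6.21, 6.47, 6.34 and 6.47 FPKM in Control, and its interval was narrow around no change (from -0.09 to 0.07). Ubtf, the factor that keeps ribosomal DNA open for transcription, averaged 27.1 ± 0.63 FPKM in DDC and 26.7 ± 1.69 FPKM in Control (SD, n = 4 each), with an interval of the log2 difference from -0.09 to 0.13. The sign of this last difference changed without Control 4 (-0.01).

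All 6 nucleolar and multifunctional genes rose, where 33.5% of all tested genes rose and 31.5% had every DDC library above every Control library. Npm1, nucleophosmin, an abundant nucleolar chaperone, had the highest FPKM of the 35 genes, at 126, 128, 134 and 126 FPKM in DDC and 75.1, 82.4, 89.6 and 80.8 FPKM in Control (log2 fold change 0.64 ± 0.06). Ncl, nucleolin, which binds the ribosomal RNA precursor, stood at 58.6, 55.4, 58.6 and 57.2 FPKM in DDC and 37.6, 38.1, 39.5 and 37.5 FPKM in Control. Replicates of Ncl lay close together, so its rise of 0.58 ± 0.03 had the smallest adjusted p of the 35 genes (limma adjusted p = 4.2e-07). Gnl3, nucleostemin, a GTP-binding nucleolar protein, stood at 25.5, 25.02, 24.97 and 27.6 FPKM in DDC and 15.7, 15.02, 16.8 and 15.1 FPKM in Control (0.68 ± 0.06). The RNA helicase gene Ddx21 stood at 26.9, 24.7, 26.5 and 26.1 FPKM in DDC and 17.4, 16.1, 18.3 and 15.2 FPKM in Control (0.61 ± 0.06). Smaller rises were those of Nolc1, a chaperone of snoRNPs (0.30 ± 0.04), and Mybbp1a, a nucleolar Myb-binding protein (0.26 ± 0.04). In all 6 the groups did not overlap.

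The 3 genes of the box C/D core rose by similar amounts. Of all tested genes 33.5% rose and 31.5% had every DDC library above every Control library. Fbl, fibrillarin, the methyltransferase of the particle, stood at 48.3, 46.02, 53.03 and 49.2 FPKM in DDC and 33.8, 32.8, 37.01 and 32.6 FPKM in Control (0.52 ± 0.06). Its scaffold partner Nop56 stood at 19.2, 17.6, 20.4 and 19.5 FPKM in DDC and 12.2, 12.2, 13.005 and 12.01 FPKM in Control (0.59 ± 0.06), and Nop58 at 9.0, 8.94, 9.26 and 8.402 FPKM in DDC and 6.33, 6.36, 6.32 and 6.52 FPKM in Control (0.42 ± 0.04). No DDC library of the box C/D genes overlapped a Control library. The box H/ACA core spread more widely. Nhp2 (chromosome 11, 51619735 to 51623714, ENSMUSG00000001056), an RNA-binding core protein of these particles and of telomerase, stood at 36.8, 38.7, 42.8 and 37.7 FPKM in DDC and 15.9, 16.3, 20.1 and 13.7 FPKM in Control. Its rise of 1.20 ± 0.10 was the largest of the 35 genes on the scale of log2(FPKM + 1) (limma adjusted p = 4.9e-06). Gar1 stood at 17.6, 17.2, 18.4 and 15.3 FPKM in DDC and 8.86, 10.3, 10.7 and 10.7 FPKM in Control (0.70 ± 0.07). Dkc1, dyskerin, the pseudouridine synthase itself, rose by only 0.21 ± 0.04, at 10.1, 10.3, 10.4 and 9.85 FPKM in DDC and 8.12, 9.03, 8.904 and 8.45 FPKM in Control. The fourth core protein gene, Nop10, which belongs to a wider list below and was named after its value was seen, fell by 0.22 (SE 0.07; limma adjusted p = 0.014), so the 4 genes of this particle did not move alike.

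**Figure D2:**
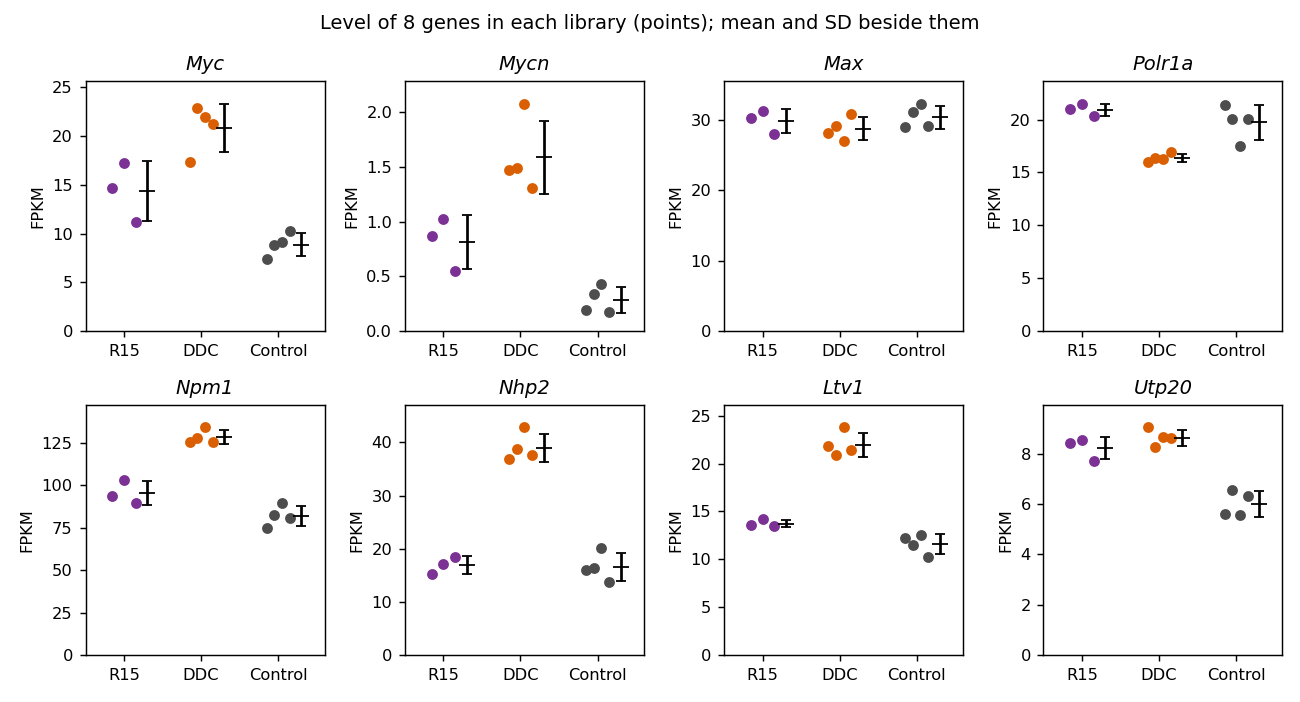
FPKM of 8 genes in each library (points) with the mean and SD of each group beside them, for R15 (n = 3), DDC (n = 4) and Control (n = 4); every y axis starts at 0. Myc, Mycn, Npm1, Nhp2 and Ltv1 are highest in DDC, Polr1a is lowest in DDC, and Utp20 is about as high in R15 as in DDC.

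All 8 small subunit genes rose, where 33.5% of all tested genes rose and 31.5% had every DDC library above every Control library. Ltv1, a factor that leaves the small subunit late in its assembly (chromosome 10, 13178640 to 13193137, ENSMUSG00000019814), stood at 21.8, 20.9, 23.8 and 21.5 FPKM in DDC and 12.2, 11.5, 12.6 and 10.2 FPKM in Control (0.87 ± 0.06; limma adjusted p = 1.7e-06). Rrp12, which in yeast helps export both subunits, stood at 6.14, 5.79, 6.27 and 5.88 FPKM in DDC and 3.38, 3.73, 3.53 and 3.09 FPKM in Control (0.67 ± 0.05). Wdr43, part of the early processome, stood at 20.8, 19.9, 20.4 and 20.3 FPKM in DDC and 15.1, 14.9, 15.7 and 15.7 FPKM in Control (0.39 ± 0.04). None of these 3 overlapped between the groups. Tsr1 (0.53 ± 0.08), Utp20 (0.46 ± 0.06), Bysl (0.45 ± 0.07) and Rrp9 (0.24 ± 0.04), which work at early and late steps of 40S assembly, rose less. Nop14 rose least (0.11 ± 0.04), and its call was lost without Control 1 (0.10), Control 3 (0.09), DDC 2 (0.10), DDC 3 (0.10) or the 5 libraries (0.09), and with rescaling to a common total (0.03).

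Of the 9 large subunit genes 7 (77.8%) rose, where 33.5% of all tested genes rose and 31.5% had every DDC library above every Control library. Pes1 stood at 31.7, 30.8, 31.03 and 30.2 FPKM in DDC and 20.7, 21.6, 22.4 and 19.9 FPKM in Control (0.53 ± 0.04; limma adjusted p = 2.2e-06). Its partner Bop1, in the PeBoW complex that processes 60S precursors, stood at 24.6, 25.3, 26.2 and 23.8 FPKM in DDC and 20.1, 19.6, 20.3 and 17.99 FPKM in Control (0.34 ± 0.04). The last PeBoW gene, Wdr12, stood at 1.79, 1.84, 1.92 and 1.84 FPKM in DDC and 1.56, 1.65, 1.65 and 1.7 FPKM in Control, over a listed length of 11955 bases. It did not pass (95% interval of the log2 difference from -0.01 to 0.22), although it passed with limma voom on whole reads (0.15). Rrs1, which in yeast brings the 5S particle to the 60S precursor, stood at 16.2, 16.3, 15.7 and 17.5 FPKM in DDC and 10.2, 12.1, 11.6 and 10.8 FPKM in Control (0.52 ± 0.05). Nip7, a 60S assembly factor, stood at 9.75, 9.81, 9.71 and 9.91 FPKM in DDC and 6.51, 7.21, 7.63 and 6.65 FPKM in Control (0.43 ± 0.05), with no overlap in either gene. The ribosomal RNA methyltransferase gene Nop2 (0.23 ± 0.06), Nop16 (0.18 ± 0.04) and Noc2l (0.13 ± 0.04) rose less, and Noc3l did not pass (from -0.02 to 0.18). The call of Noc2l was lost without DDC 3 (0.10), and those of Noc2l and Nop16 without the 5 libraries (0.19 and 0.21) and with rescaling to a common total (0.05 and 0.09).

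The next question is what 15 days back on chow did, in R15 against DDC. Most genes that rose in DDC were reduced in R15, and 2 polymerase genes were higher. Of the 35 genes 24 (68.6%) fell and 2 rose, where 28.8% of all tested genes fell and 33.4% rose (62.2% in either direction). The median log2 fold change was -0.29, against 0.04 for all genes tested. For 25 genes every R15 library lay below every DDC library, as for 31% of all genes, and for 3 it lay above, as for 35.6%. Without the 5 libraries the median was -0.30, against 0.04 for all genes tested. The higher count was 4 without R15 3, with Ubtf (0.16) and Noc3l (0.14) added. With each library rescaled to a common total 7 genes rose and 21 fell. The median was then -0.18, against 0.14 for all genes tested, which had shifted by 0.10. The shares of all genes called under these settings are not given here. This comparison shares its DDC libraries with the first, so each comparison's own values are given.

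Nhp2 had the largest fall, at 15.2, 17.1 and 18.5 FPKM in R15 1 to 3 against 39.01 ± 2.65 FPKM in DDC (SD, n = 4). Its log2 fold change was -1.16 ± 0.11 (limma adjusted p = 1.8e-05). No R15 library came near the lowest DDC library, which stood at 36.8 FPKM. Ltv1 stood at 13.6, 14.2 and 13.4 FPKM in R15 against 21.97 ± 1.26 FPKM in DDC (-0.64 ± 0.07), Gnl3 at 17.1, 18.3 and 15.5 FPKM in R15 against 25.8 ± 1.26 FPKM in DDC (-0.58 ± 0.06), and Ncl at 43.2, 43.7 and 41.9 FPKM in R15 against 57.5 ± 1.52 FPKM in DDC (-0.41 ± 0.03). Each of these had all R15 libraries under all DDC libraries, as had 31% of all tested genes. Among the box C/D genes Nop56 changed most (-0.53 ± 0.06), with Fbl at -0.44 ± 0.07 and Nop58 at -0.28 ± 0.04. Of the small subunit genes Tsr1 (-0.54 ± 0.09), Bysl (-0.53 ± 0.08) and Rrp12 (-0.42 ± 0.06) followed Ltv1, and of the large subunit genes Nip7 (-0.47 ± 0.05), Pes1 (-0.40 ± 0.04), Bop1 (-0.34 ± 0.05) and Rrs1 (-0.29 ± 0.06) led.

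Myc stood at 14.7, 17.3 and 11.2 FPKM in R15 against 17.3, 22.9, 21.96 and 21.3 FPKM in DDC, with R15 2 almost level with DDC 1, and was lower by 0.52 on the log2 scale (SE 0.15; limma adjusted p = 0.010). Mycn stood at 0.872, 1.02 and 0.545 FPKM in R15 against 1.47, 1.49, 2.07 and 1.31 FPKM in DDC, all R15 libraries below all DDC libraries, and its difference was -0.51 ± 0.13, a call lost without the 5 libraries (-0.42). The genes that rose were Polr1a, at 20.96, 21.5 and 20.3 FPKM in R15 against 16.01, 16.4, 16.2 and 16.9 FPKM in DDC (0.33 ± 0.06; limma adjusted p = 0.00066), and Polr1b, at 7.53, 7.39 and 7.04 FPKM in R15 against 6.33, 6.27, 6.42 and 6.29 FPKM in DDC (0.18 ± 0.04; limma adjusted p = 0.0018). Neither gene overlapped between the groups, and 35.6% of all tested genes had every R15 library above every DDC library. Both calls were kept in all 25 alternatives. Utp20, Nop14, Nop2, Noc2l, Noc3l, Dkc1, Wdr12, Max and Ubtf did not pass, with Utp20 at 8.43, 8.54 and 7.72 FPKM in R15 against 9.04, 8.26, 8.65 and 8.61 FPKM in DDC (95% interval of the log2 difference from -0.20 to 0.08). The calls of Mybbp1a, Rrp9 and Nop16 rested on small falls (-0.10 ± 0.04, -0.13 ± 0.04 and -0.15 ± 0.05) and were each lost without R15 3, among other libraries: Mybbp1a (-0.09) also without Control 1, Control 2, Control 4, DDC 1, DDC 3 or R15 1, Rrp9 (-0.13) also without DDC 1, DDC 3 or R15 2, and Nop16 (-0.15) also without R15 1. The sign of Mybbp1a turned with each library rescaled to a common total (0.011), where Noc2l passed as higher (0.11). Dkc1 passed as lower in 6 of the 25 alternatives. These were the fit without Control 1 (-0.11), the filter at FPKM 5, median-of-ratios scaling, quantile normalization, only the 2 groups compared, and limma voom on whole reads.

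**Figure D3:**
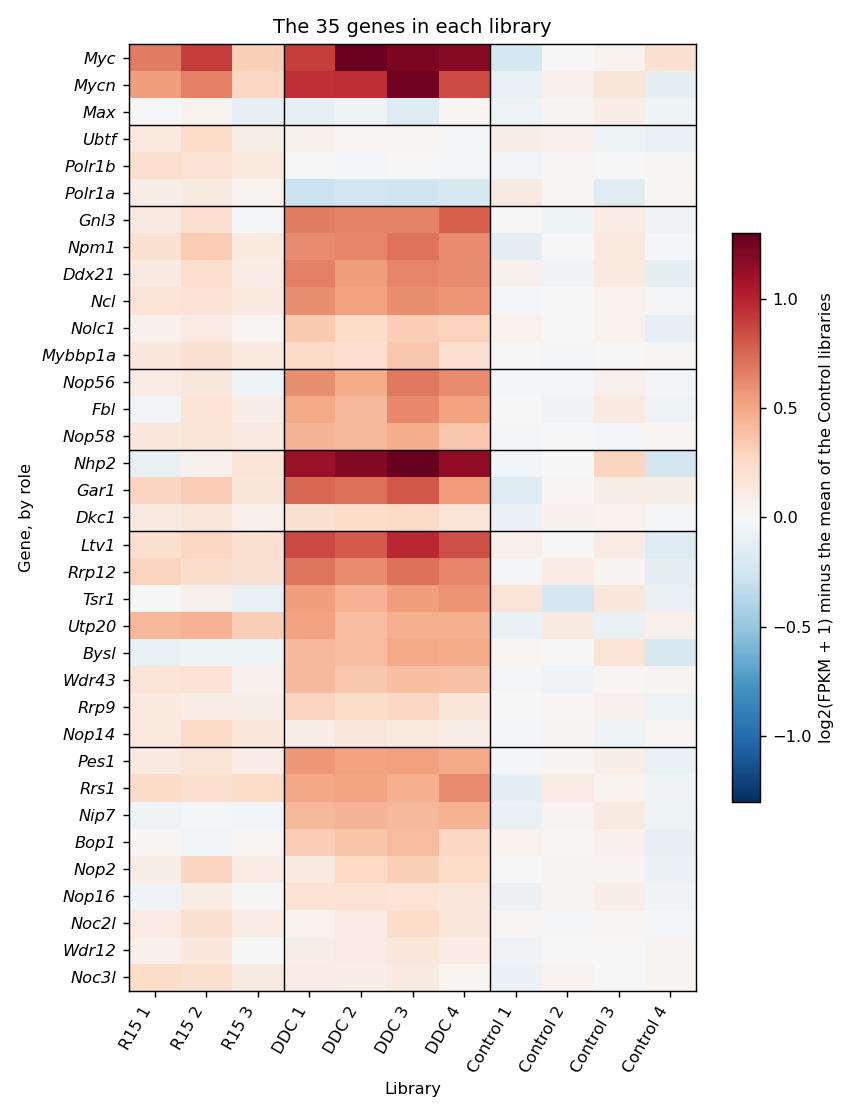
Log2(FPKM + 1) of each of the 35 genes (rows, by role) in each of the 11 libraries (columns), minus the mean of the Control libraries for that gene; red is above and blue below that mean. The 4 DDC columns are red for most genes and blue for Polr1a, and the R15 columns are paler for most genes. Of the R15 libraries, R15 2 has the highest value for 27 genes.

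R15 against Control asks whether the genes were back at the level of mice that never had the diet. Most did not differ past the threshold, and those that did were all higher in R15. Of the 35 genes 10 (28.6%) were higher, where 6.87% of all tested genes were higher and 2.72% lower (9.58% in either direction). No gene was lower by limma, at an unadjusted p under 0.05 or with limma voom (0 of 35 in each). The median log2 fold change was 0.14, against 0.05 for all genes. For 19 genes all R15 libraries lay above all Control libraries, as for 15% of all genes, and for none did they all lie below, as for 6.3%. The 10 were Myc, Mycn, Polr1b, Ncl, Mybbp1a, Nop14, Utp20, Rrp12, Rrs1 and Noc3l. Utp20, a large scaffold protein of 40S assembly, stood at 8.43, 8.54 and 7.72 FPKM in R15 against 5.59, 6.56, 5.55 and 6.32 FPKM in Control, with no overlap (0.40 ± 0.06; limma adjusted p = 0.0052). Myc stood at 14.7, 17.3 and 11.2 FPKM in R15 against 7.37, 8.79, 9.11 and 10.2 FPKM in Control, again with no overlap (0.63 ± 0.15; limma adjusted p = 0.028), and Mycn at 0.872, 1.02 and 0.545 FPKM in R15 against 0.194, 0.342, 0.43 and 0.172 FPKM in Control (0.49 ± 0.13; limma adjusted p = 0.043). The other 7 differed by 0.15 (Mybbp1a) to 0.24 (Rrp12) on the log2 scale. Polr1b stood at 7.53, 7.39 and 7.04 FPKM in R15 against 6.21, 6.47, 6.34 and 6.47 FPKM in Control (0.17 ± 0.04). Nhp2, at its highest under the diet, stood at 15.2, 17.1 and 18.5 FPKM in R15 against 15.9, 16.3, 20.1 and 13.7 FPKM in Control, and the interval of its log2 difference ran from -0.20 to 0.29.

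These 10 calls were fragile, though all kept their sign in every alternative in which the gene was tested. The count was 1 without R15 1 or without R15 2, 3 without Control 1, 4 without DDC 1, 5 without Control 3, Control 4 or DDC 2, and 0 without the 5 libraries. It was 4 with median-of-ratios scaling, where the split over all genes was 682 higher and 707 lower instead of 1048 and 415. Utp20 was the one gene called in every alternative other than the one without the 5 libraries. R15 2 was the highest R15 library for 27 of the 35 genes and also had the highest macrophage and dendritic cell sum of its group (832 FPKM, against 216 and 256), and the highest sums of B and plasma cell genes (174, against 38.9 and 59.7), stellate cell and fibroblast genes (23.4, against 3.26 and 5.51), erythroid genes (26.9, against 4.88 and 10.4), neutrophil genes and endothelial genes. The part of those cells was not tested.

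The 3 comparisons sort the genes into patterns. Of the 35, 18 rose under the diet, fell in R15 against DDC and did not pass in R15 against Control. Among them were Npm1, Fbl, Nop56, Nhp2, Gar1, Ltv1, Pes1 and Nip7. Not passing does not mean no difference. Gar1 (0.25 ± 0.08), Ltv1 (0.23 ± 0.07) and Pes1 (0.13 ± 0.04) had every R15 library above every Control library, as had 15% of all tested genes. Npm1, Fbl, Nop56, Nhp2 and Nip7 overlapped. Another 6 rose, fell and were also called above Control: Myc, Mycn, Ncl, Mybbp1a, Rrp12 and Rrs1. Nop14 and Utp20 rose, did not pass in R15 against DDC and were above Control, and Dkc1, Nop2 and Noc2l rose and passed in neither of the other comparisons. Polr1a alone fell and then rose, Polr1b and Noc3l were called higher only in comparisons with R15, and Max, Ubtf and Wdr12 were called in none. The share of all tested genes with each pattern was not counted. Taken singly, 33.5% of all tested genes were higher in DDC against Control and 28.8% lower in R15 against DDC. In R15 against Control 9.58% passed in either direction, so that most did not pass there. Because the comparisons share libraries, these patterns are a description.

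**Figure D4:**
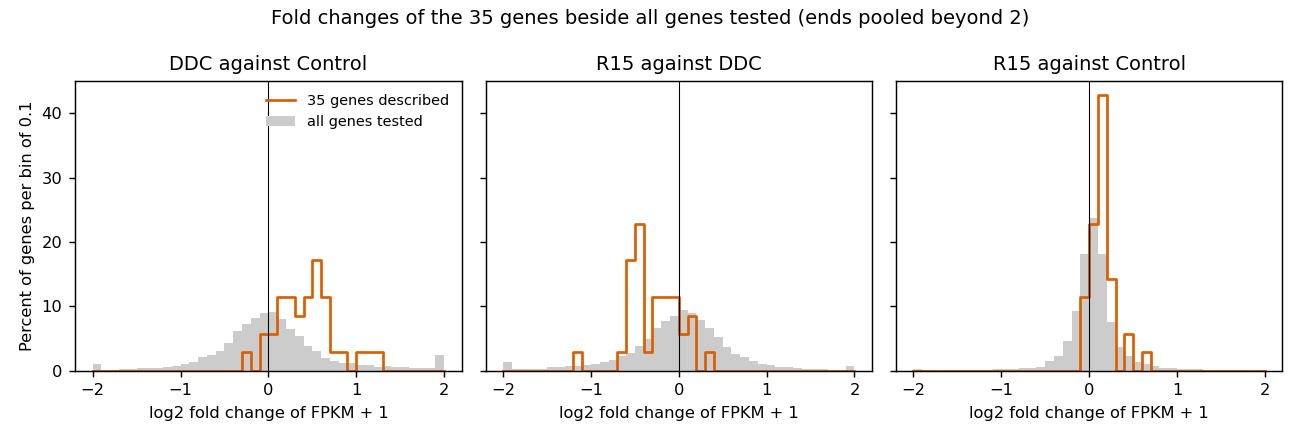
Percent of genes per bin of 0.1 in log2 fold change of FPKM + 1, for the 35 genes (orange line) and all 15264 genes tested (grey bars), in the 3 comparisons; values beyond 2 are pooled at the ends. The orange line is centred at 0.43 in DDC against Control, -0.29 in R15 against DDC and 0.14 in R15 against Control, beside medians of 0.00, 0.04 and 0.05 for all genes.

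By their mean FPKM over the 11 libraries, Npm1 (102.5), Ncl (46.5) and Fbl (40.1) led, and Rrp12 (4.59), Wdr12 (1.75) and Mycn (0.901) came last. These ranks depend on the listed gene lengths. Wdr12, at 11955 bases, had 1135 to 1558 reads per library, and Rrp12, at 4319 bases, had 898 to 1936. Ncl, at 10188 bases, had 22426 to 43580 reads, and Npm1, at 2665 bases, had 12678 to 24458. Within a group the replicates lay close together: the median SD was 4.94% of the mean in R15, 3.72% in DDC and 5.33% in Control. Mycn had the widest spread in all 3 groups (30.0%, 21.2% and 43.2% in the same order). DDC 3 was the highest DDC library for 18 genes, and Control 3, the library with gastric transcripts, was the highest Control library for 19.

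The genes share features that the choice by name did not use. In the GENCODE M21 annotation 7 of the 35 (20%) carry snoRNA genes within their span on the same strand, 21 in all, against 1.84% of the 12959 protein-coding genes tested. They are Nop56 with 5, Nop58 with 4, Ncl, Gnl3 and Wdr43 with 3 each, Tsr1 with 2 and Dkc1 with 1. All 7 rose under the diet, as did 29 of the 35 genes and 33.5% of all genes tested, at log2 fold changes of 0.21 (Dkc1) to 0.68 (Gnl3). Exons of 12 of the 35 genes overlap those of a protein-coding gene on the other strand, exons of Polr1a, Nop14 and Wdr43 overlap an antisense RNA gene, and whether the counting used strand is not stated in the sources used here, so that reads of both could be mixed. Of the 10 such neighbours that were tested 8 fell in DDC against Control, where 31.9% of all tested genes fell. Among the 8 were Rmnd5b beside Nhp2 (-0.22 ± 0.07), Srr beside Tsr1 (-1.0 ± 0.08) and Ccnd3 beside Bysl (-0.44 ± 0.06). The other 2 rose, Parp3 beside Rrp9 (0.54 ± 0.06) and Pbrm1 beside Gnl3 (0.22 ± 0.05). In R15 against Control Pbrm1 (0.21 ± 0.05) and Parp3 (0.32 ± 0.06) were higher too, and Spns2 beside Mybbp1a differed by 0.37 ± 0.12 (limma adjusted p = 0.070). The values of all genes with such a neighbour are uncertain to that extent.

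Genes outside the 35 were counted in wider lists of the same pathway, which were also chosen with earlier results of these data known. Of 121 other ribosome biogenesis genes in 4 lists, 73 (60.3%) were higher and 12 (9.92%) lower in DDC than in Control, with a median log2 fold change of 0.19. Of all tested genes 33.5% were higher and 31.9% lower. In R15 against DDC 53 of the 121 (43.8%) were lower and 20 (16.5%) higher (median -0.10), where 28.8% of all tested genes were lower and 33.4% higher. In R15 against Control 25 (20.7%) were higher and 1 lower (median 0.11), where 6.87% of all tested genes were higher and 2.72% lower. Of 46 other small subunit genes 25 rose and 5 fell under the diet, led by Pno1, a late 40S factor, at 26.8 ± 0.938 FPKM in DDC and 13.7 ± 1.19 FPKM in Control (SD, n = 4 each; 0.92 ± 0.06 on the log2 scale), with Noc4l (0.64 ± 0.04) and Nol10 (0.59 ± 0.04). Of 46 other large subunit genes 33 rose and 1 fell, led by Eif6, which keeps the 60S subunit from joining too early, at 80.3 ± 5.27 FPKM in DDC and 33.4 ± 2.59 FPKM in Control (1.24 ± 0.06), with Ddx54 (0.54 ± 0.04) and Rpf2 (0.38 ± 0.04). Of 17 other RNA polymerase I genes 10 rose and 4 fell. Those with the smallest p, Taf1d (0.58 ± 0.05), Polr1e (0.50 ± 0.06) and Polr2h (0.35 ± 0.05), rose. Those that fell, named after their values were seen, were Znrd1 (-0.31), Taf1a (-0.24), Ttf1 (-0.23) and Polr2k (-0.22), so that genes of this polymerase and its factors went both ways. Of 12 other snoRNP and chaperone genes 5 (41.7%) rose and 2 fell, close to the share of all genes, with Rpap3 (0.36 ± 0.04), Nufip1 (0.43 ± 0.06) and Ruvbl2 (0.29 ± 0.06) showing the smallest p. The H/ACA assembly factor gene Naf1 went the other way, at 7.84 ± 0.0391 FPKM in DDC and 10.3 ± 1.19 FPKM in Control (-0.35 ± 0.07), and at 12.7 ± 0.206 FPKM in R15 (SD, n = 3) it was above both, by 0.63 ± 0.07 against DDC and 0.28 ± 0.07 against Control. In R15 against Control the smallest p of the small subunit list were those of Dhx37 (0.24 ± 0.03), Ddx52 (0.25 ± 0.04) and Heatr1 (0.27 ± 0.05), and of the large subunit list those of Mdn1 (0.44 ± 0.08), Ddx27 (0.19 ± 0.04) and Pelp1 (0.21 ± 0.05), all higher.

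Other Myc network genes did not move as a block. Of 14, 2 (14.3%) were higher and 4 (28.6%) lower in DDC than in Control, where 33.5% of all tested genes were higher and 31.9% lower. Mycl, the third Myc family gene, stood at 6.82 ± 0.509 FPKM in DDC and 1.01 ± 0.389 FPKM in Control (1.98 ± 0.13), a larger log2 rise than that of Myc or Mycn, and at 2.00 ± 0.445 FPKM in R15 it stayed above Control (0.59 ± 0.14). Mxd3, a Max partner that represses transcription, stood at 3.97 ± 0.237 FPKM in DDC and 0.493 ± 0.244 FPKM in Control (1.75 ± 0.11), and it reached 1 FPKM in the 4 DDC libraries alone, so it too entered the test through the group where it is high. Mga, another Max partner and a repressor, stood at 6.54 ± 0.163 FPKM in DDC and 9.84 ± 1.11 FPKM in Control (-0.52 ± 0.07), and in R15 it was above DDC (0.76 ± 0.07). Growth genes that are known Myc targets outside ribosome assembly moved with the 35 genes under the diet: of 35 in that list 27 (77.1%) were higher and 3 lower in DDC than in Control, with a median of 0.39. Eif4a1, a translation initiation helicase gene, stood at 115 ± 2.75 FPKM in DDC and 53.1 ± 3.39 FPKM in Control (1.104 ± 0.05), and Ctps, which makes the nucleotide CTP, at 28.6 ± 1.95 FPKM in DDC and 12.1 ± 0.869 FPKM in Control (1.18 ± 0.06). Ccnd2, a G1 cyclin gene also counted among Myc targets, went against them, at 18.99 ± 1.99 FPKM in DDC and 63.8 ± 9.05 FPKM in Control (-1.69 ± 0.10). In R15 against DDC 25 of that list (71.4%) were lower and 1 higher, where 28.8% of all tested genes were lower and 33.4% higher. In R15 against Control 2 (5.71%) were higher and 2 (5.71%) lower, where 6.87% of all tested genes were higher and 2.72% lower.

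Genes of DNA replication moved further in the same libraries. Of 35 in that list 34 (97.1%, against 33.5% of all tested genes) rose in DDC against Control (median 1.22 on the log2 scale). In R15 against DDC 34 of them (97.1%, against 28.8% of all tested genes) fell (median -1.14). In R15 against Control their median was 0.07 and their values ran from -0.28 to 0.28, where the 35 ribosome and Myc genes had a median of 0.14. Chaf1b, a histone chaperone of replication, stood at 7.23 ± 0.45 FPKM in DDC and 1.68 ± 0.171 FPKM in Control (1.62 ± 0.06). Whether the rise of ribosome genes took place in the same cells as the rise of replication genes was not tested.

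**Figure D5:**
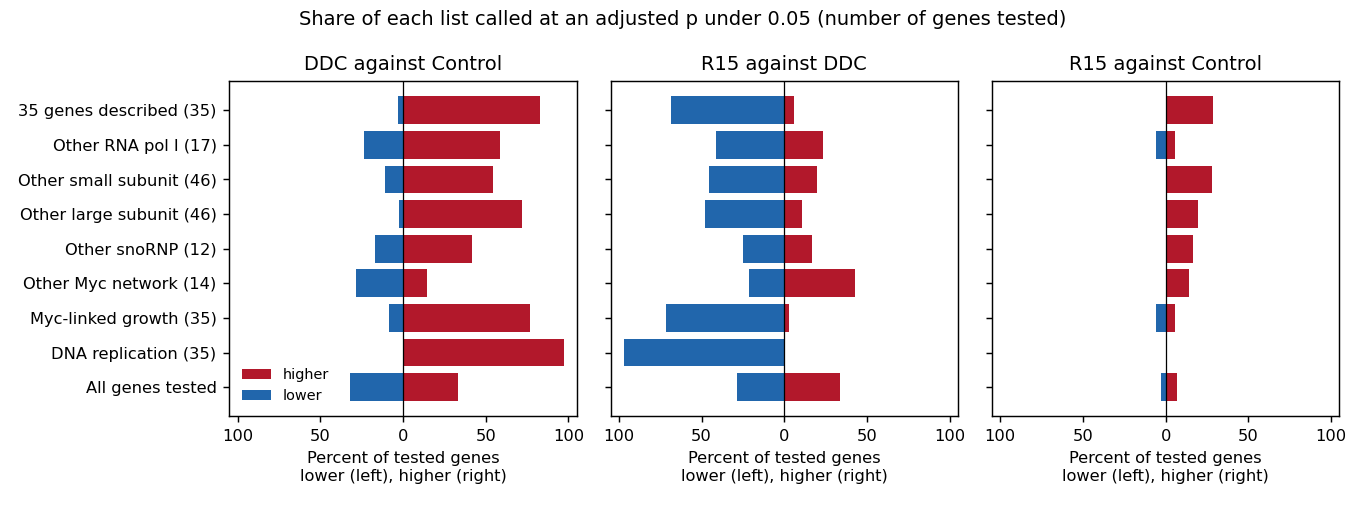
Percent of the tested genes of each list (number in brackets) called higher (red, right of 0) or lower (blue, left of 0) at a limma adjusted p under 0.05, in the 3 comparisons, with all 15264 genes tested in the last row. The 35 genes described have 82.9% higher and 2.86% lower in DDC against Control, where all genes have 33.5% and 31.9%.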

How the data were processed

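Per the labels, the libraries are stranded and from polyadenylated RNA. The authors deposited FPKM for all libraries in 1 table, with build mm10 per the submitters' processing notes; aligner, counter, strand setting and gene models are not stated in the sources used here. Whole reads were recovered from 100% of nonzero FPKM values (tolerance 0.001), with a gene length 1 base longer than listed, which is inferred from the values.

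Genes reaching FPKM 1 in 3 libraries or more were tested (15264) on log2(FPKM + 1), which understates changes of low genes. A linear model of the 3 groups over all 11 libraries was fitted in limma 3.58.1 under R 4.3.3 (eBayes with a mean-variance trend), with 2-sided p-values and Benjamini-Hochberg adjustment across those genes (threshold 0.05). Errors of fold changes are SE. The code was tested on simulated data. Replicates are separate mice. The 35 genes and the other lists were chosen with earlier results of these data known. Named genes were the 35 and, per list and comparison, those with the smallest p; Nop10, Znrd1, Taf1a, Ttf1, Polr2k, the marker genes and the overlapping neighbours were named after their values were seen. Promoters came from RefSeq (GRCm38.p6), overlaps from GENCODE M21. Alternatives covered pseudocounts of 0.1 and 5, filters, scalings, robust variances, 2-group fits, limma voom on whole reads, a replicate block, protein-coding genes, a threshold of 0.01 and left-out libraries.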

Additional observations from a re-analysis of the deposited data

How the results depend on the processing

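Of the 30 calls in DDC against Control 27 held in all 25 alternatives, of the 26 in R15 against DDC 21 did, and of the 10 in R15 against Control 0 did. The number of R15 libraries, 3, limits the precision of both comparisons with them. The median of the 35 genes in DDC against Control was 0.30 with a pseudocount of 5. With each library rescaled to a common total, 2 genes were lower in DDC against Control and 7 were higher in R15 against DDC (median -0.18, against 0.14 for all genes). In R15 against Control 253 of all genes were lower under that setting. Leaving out single libraries gave 2 to 4 higher in R15 against DDC and, in R15 against Control, 1 to 9 higher, with 493 to 1464 of all genes higher and 187 to 722 lower. In R15 against Control the higher count was 6 with no filter, 4 with median-of-ratios scaling (all genes 682 higher, 707 lower), 5 with quantile normalization (594 higher), 1 with only the 2 groups compared (247 higher, 70 lower), 5 with limma voom (701 lower), 1 at an adjusted p under 0.01 (263 higher, 83 lower) and 0 without the 5 libraries (9 higher, 1 lower), where the lone Control library is assumed to vary like the rest. Same-numbered libraries correlated at -0.28 to 0.30, so the numbers do not pair the mice; with the replicate block 2 genes were higher in R15 against Control (all genes 486 higher, 207 lower), 29 rose and 1 fell in DDC against Control, and 23 fell in R15 against DDC.

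Signs reversed as follows, and the cause was not tested. Of the differences concerned only Mybbp1a in R15 against DDC was a call (-0.10), and only Noc2l became a call in the other direction. With a common total these were Ubtf in DDC against Control (-0.063), Mybbp1a (0.011), Utp20 (0.042), Wdr12 (0.036), Nop2 (0.036) and Noc2l (0.11, limma adjusted p = 0.049) in R15 against DDC, and Max (0.0039) and Tsr1 (0.019) in R15 against Control. Noc2l in R15 against DDC was also 0.036 with quantile normalization. In R15 against Control, median-of-ratios scaling gave Nhp2 -0.0092, Bop1 -0.049 and Nop16 -0.028, quantile normalization Bop1 -0.0055, Wdr12 -0.023 and Nop16 -0.011, the replicate block Nhp2 -0.0048 and Bop1 -0.026, and limma voom Nhp2 -0.016, Bop1 -0.052 and Nop16 -0.031. Without the 5 libraries Max was 0.076, Tsr1 0.13, Bysl 0.13 and Nip7 0.026. With single libraries left out, Ubtf in DDC against Control ran from -0.0067 to 0.049 and Noc2l in R15 against DDC from -0.036 to 0.032. In R15 against Control Max ran from -0.059 to 0.019, Nhp2 from -0.037 to 0.14, Tsr1 from -0.081 to 0.052, Bop1 from -0.033 to 0.022, Nop16 from -0.016 to 0.058 and Nip7 from -0.066 to 0.00084.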
